A study of Mus musculus with 12 samples.

Results

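The neutrophil granule protein genes described here are 10 genes chosen by symbol. Elane, Mpo, Prtn3 and Ctsg encode proteins of the azurophil granules, Ltf, Ngp, Camp and Lcn2 encode proteins of the specific granules, and S100a8 and S100a9 encode the subunits of calprotectin, a cytosolic protein that neutrophils hold in bulk. They are 10 of the 55291 gene symbols in each count table, and all 10 were among the 18147 symbols with enough counts to be tested. The 12 RNA-seq libraries are from VE-cadherin-positive cells, labelled as endothelial, of VECadCre-tdTomato mice, whose name gives a Cre recombinase under VE-cadherin control and a tdTomato reporter. Marrow AML and lung AML libraries are from mice given a transplant of AML Trp53(R172H/Δ) cells, which are acute myeloid leukaemia cells with a missense and a deleted allele of the p53 gene. Marrow control and lung control libraries are from mice of the same strain with no transplant, and each of the 4 groups has 3 libraries. The labels give no age, and they do not say whether libraries of a group are separate mice or pools. The p-values below therefore measure the spread between these libraries, which may be technical. The counts do not tell RNA of transplanted cells from RNA of the host, and in bulk samples fewer cells of a type and less RNA per cell cannot be told apart.

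As background, a neutrophil precursor fills its granules in a fixed order. Azurophil granules, with myeloperoxidase and the serine proteases, are loaded at the promyelocyte stage, and specific granules, with lactoferrin, cathelicidin and lipocalin, are loaded later, at the myelocyte stage. Transcripts of both sets are then shut down, so that a mature neutrophil carries the proteins with little of the azurophil mRNA, while S100a8 and S100a9 transcripts persist in mature cells. Lcn2 is also made outside the granulocyte lineage, by airway and alveolar epithelium among others. In marrow, granulopoiesis is a main task of the tissue, and the lung holds mature neutrophils in its capillaries.

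Library totals ranged from 12.8 to 39.2 M counts. The 17 endothelial markers summed to 0.0246 to 0.0363% of the counts in marrow control, 0.0257 to 0.0311% in marrow AML, 0.330 to 1.14% in lung control and 0.0324 to 0.111% in lung AML. Cdh5, the VE-cadherin gene itself, had 76 to 130 counts in marrow control libraries and 6 to 25 in marrow AML libraries, with 1734 to 9070 in lung control and 141 to 744 in lung AML. No endothelial marker was at 0 counts in any library, except for 1 of the 17 in marrow AML 3. The 12 lung epithelial markers were led by the surfactant gene Sftpc. They summed to 15.1 to 18.9% in lung control and 20.3 to 22.5% in lung AML. In marrow control they summed to 0.0397 to 0.236%, with the highest value in marrow control 2. In marrow AML they summed to 0.0329 to 0.186%, with the highest value in marrow AML 3. Their sum was above that of the endothelial markers in each marrow library. The part of lung RNA in the marrow values of Lcn2, S100a8 and S100a9 was not tested. The 10 granule genes together made up 0.00292 to 0.0372% of the counts in marrow control, 0.00203 to 0.0211% in marrow AML, 0.0236 to 0.0418% in lung control and 0.0451 to 0.0588% in lung AML. The granule genes were a minor component of every library.

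The genes lie in 6 places in the GRCm38 assembly (GENCODE annotation), and 3 of these hold neighbours. Prtn3 (chr10:79874476-79883174) and Elane (chr10:79886247-79888215) are 3.1 kb apart on the plus strand with no protein-coding gene between them. S100a8 (chr3:90668978-90670035) and S100a9 (chr3:90692632-90695721) are 22.6 kb apart. Camp (chr9:109847379-109849617), Ngp (chr9:110419747-110423012) and Ltf (chr9:111019271-111042767) span a stretch of chromosome 9 with 29 protein-coding genes between the outer ones. Mpo (chr11:87793581-87804413), Ctsg (chr14:56099881-56102574) and Lcn2 (chr2:32384633-32388252) stand alone. As examples, the 250 bases before the start site are shown for 1 gene of each class. They are from the RefSeq promoter table on GRCm38.p6, 5′ to 3′ on the gene's strand. Ctsg (chr14:56102575-56102824, minus strand) was taken from the azurophil class, Ltf (chr9:111019042-111019291, plus strand) from the specific granules and S100a9 (chr3:90695722-90695971, minus strand) from calprotectin. Capitals mark matches, on either strand and with no overlap between motifs in these 3, to the C/EBP letters TTGCNNAA or to the PU.1 core GAGGAA.
Ctsg: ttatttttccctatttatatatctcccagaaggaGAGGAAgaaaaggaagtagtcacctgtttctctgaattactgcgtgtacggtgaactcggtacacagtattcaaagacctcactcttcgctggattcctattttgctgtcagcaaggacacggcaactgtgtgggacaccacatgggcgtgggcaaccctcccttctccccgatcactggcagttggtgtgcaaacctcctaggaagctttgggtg
Ltf: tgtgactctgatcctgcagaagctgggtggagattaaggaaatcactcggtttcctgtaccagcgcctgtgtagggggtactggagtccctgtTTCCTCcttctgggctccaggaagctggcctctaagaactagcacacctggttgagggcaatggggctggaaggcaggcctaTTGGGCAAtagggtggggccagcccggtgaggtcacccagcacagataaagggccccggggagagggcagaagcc
S100a9: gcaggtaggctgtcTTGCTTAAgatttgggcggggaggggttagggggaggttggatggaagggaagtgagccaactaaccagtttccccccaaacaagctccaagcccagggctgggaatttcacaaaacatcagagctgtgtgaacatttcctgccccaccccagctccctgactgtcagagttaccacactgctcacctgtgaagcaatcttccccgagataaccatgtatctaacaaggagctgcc
Of the 10 genes, 4 (Ltf, Ngp, Lcn2 and S100a9) had a C/EBP match in this window, against 9.56% of 32851 promoters, and none of the 4 azurophil genes did. A PU.1 core was found in 7, the 4 azurophil genes with Ltf, Lcn2 and S100a8, against 23.3% of promoters. Genes of a class could differ: S100a9 had a C/EBP match and no PU.1 core, S100a8 had the reverse, and Camp had neither. The Myb core AACNG, which is not capitalised, was in all 10 and in 74.2% of promoters. A match is a run of letters and no measured binding site.

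Among the azurophil genes, Elane encodes neutrophil elastase. Its level, in CPM (counts scaled to a common library size with TMM factors), was 63.6, 7.59 and 16.2 in marrow control 1 to 3 and 2.27, 0 and 6.49 in marrow AML 1 to 3. It was 0 in each of the 3 lung control libraries, where 0 counts allow up to 0.0394 CPM over the group, and 3.81, 0.0428 and 6.28 in lung AML. All marrow control libraries were above all marrow AML libraries, and all lung AML libraries were above the lung controls, although lung AML 2 held 1 read. Mpo encodes myeloperoxidase, the enzyme that makes hypochlorous acid. Its level was 120, 5.18 and 14.9 CPM in marrow control and 3.50, 0.0764 and 103 CPM in marrow AML. In lung control it was 0.0870, 0.0384 and 0.148 CPM and in lung AML 23.7, 0.171 and 14.1 CPM. The marrow groups overlapped, since marrow AML 3 was close to marrow control 1 and marrow AML 2 had 2 counts, and the lung groups did not overlap.

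Ctsg encodes cathepsin G. It stood at 12.5, 0.603 and 5.81 CPM in marrow control, 2.59, 0 and 13.1 CPM in marrow AML, 0.0435, 0 and 0 CPM in lung control and 3.90, 0.171 and 3.83 CPM in lung AML. As for Mpo, marrow control 1 and marrow AML 3 were the high marrow libraries and lung AML 2 the low lung AML library. Prtn3 encodes proteinase 3, the product of a gene beside Elane. It stood at 18.8, 2.01 and 2.76 CPM in marrow control, 3.69, 4.24 and 10.3 CPM in marrow AML, 0.391, 0.154 and 0.185 CPM in lung control and 2.79, 0.942 and 2.66 CPM in lung AML. Prtn3 differed from the other 3 in marrow AML 2, where it had 111 counts while Elane had 0, Ctsg 0 and Mpo 2. Counting ignored the strand, and the exons of Prtn3 share 159 bases with those of Plppr3, a gene on the other strand that is no granule gene and was examined after the values were seen. Plppr3 had 147, 209 and 156 counts in marrow control and 406, 1041 and 728 in marrow AML, with its highest count in marrow AML 2. It had 45, 46 and 70 counts in lung control and 84, 135 and 143 in lung AML. The part of these reads in the Prtn3 counts was not tested. The antisense gene that overlaps Mpo, Gm11505, had 0 or 1 count in every library.

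Of the specific granule genes, Ltf encodes the iron-binding protein lactoferrin. Its level was 18.2, 0.0502 and 0 CPM in marrow control, 0.0647, 0 and 0.174 CPM in marrow AML, 0.304, 1.23 and 1.78 CPM in lung control and 57.2, 8.09 and 24.2 CPM in lung AML. Marrow control 1 held 391 of the 392 counts of its group. Ngp encodes neutrophilic granule protein, a relative of the cathelicidins. Its level was 34.7, 0.553 and 0.180 CPM in marrow control, 0.0647, 0.420 and 7.12 CPM in marrow AML, 0.348, 0.0384 and 0.0740 CPM in lung control and 69.8, 34.9 and 7.70 CPM in lung AML. Camp encodes the mouse cathelicidin, the precursor of an antimicrobial peptide. Its level was 23.6, 0.0502 and 0.359 CPM in marrow control, 0, 0.0382 and 1.29 CPM in marrow AML, 0.0435, 0 and 0.0370 CPM in lung control and 7.18, 1.88 and 1.96 CPM in lung AML. For Ltf, Ngp and Camp the marrow groups overlapped, the 2 other marrow controls being far below marrow control 1, and every lung AML library was above every lung control library.

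Lcn2 encodes lipocalin 2, which binds bacterial siderophores. It stood at 6.47, 6.23 and 0.958 CPM in marrow control, 1.88, 6.34 and 3.001 CPM in marrow AML, 174, 352 and 191 CPM in lung control and 237, 287 and 408 CPM in lung AML. Every lung library was above every marrow library, and within each tissue the control and AML libraries overlapped. S100a8 stood at 35.6, 3.52 and 6.17 CPM in marrow control, 2.20, 14.9 and 28.5 CPM in marrow AML, 56.7, 34.7 and 21.9 CPM in lung control and 102, 81.3 and 21.6 CPM in lung AML. S100a9 stood at 43.2, 5.58 and 1.80 CPM in marrow control, 0.583, 18.2 and 9.67 CPM in marrow AML, 81.2, 48.2 and 34.2 CPM in lung control and 129, 108 and 29.7 CPM in lung AML. The 2 calprotectin genes overlapped between control and AML in both tissues, and lung AML 3 was below all lung controls for both.

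**Figure D1:**
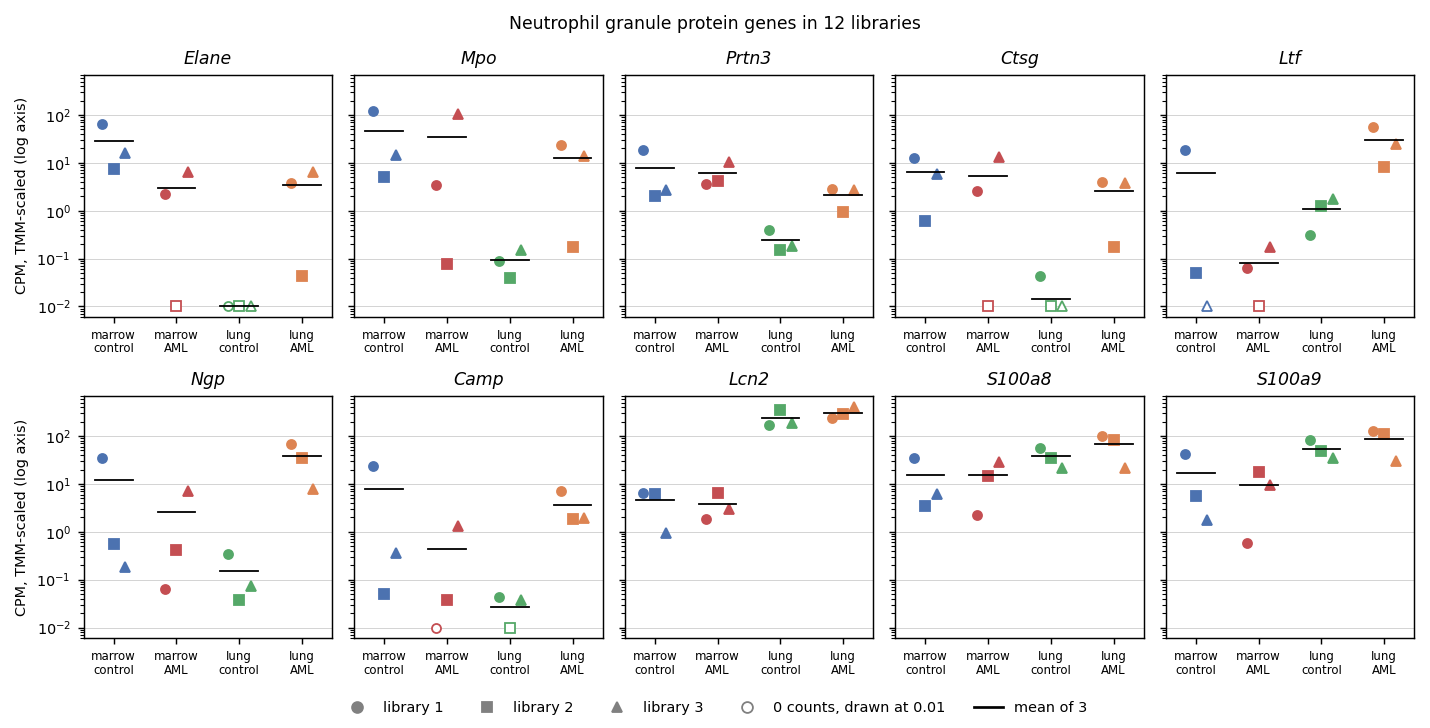
Level of each of the 10 genes in each of the 12 libraries, as TMM-scaled CPM on a log axis, with bars at the mean of the 3 libraries of a group and open symbols for libraries with 0 counts, drawn at 0.01. Marrow control 1 is the highest marrow control for all 10 genes, and the 7 genes from Elane to Camp are higher in every lung AML library than in any lung control.

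In marrow, AML against control, 1 of the 10 genes passed the test. Ltf fell, from 6.08 ± 10.5 CPM (SD, n = 3) to 0.0797 ± 0.0882 CPM, a log2 fold change of -6.11 ± 2.11 (SE, edgeR quasi-likelihood test, adjusted p = 0.0355). Over all tested genes 43.8% were called in this comparison, 23.5% as lower, so that 1 of 10 is a smaller share than the background. The Ltf call rested on marrow control 1, without which the change was 1.46 (adjusted p = 0.577). It was also lost without marrow AML 1, 2 or 3 in turn (adjusted p = 0.0786, 0.0935 and 0.0600), without lung AML 3 (0.0518), with a replicate block (-4.61, adjusted p = 0.135), where Elane was called in its place (-4.67, adjusted p = 0.0259), with limma-voom (0.625) and with no filter (0.111). Of 20 alternatives that gave a value it was called in 11, and its adjusted p over them ran from 0.00651 to 0.625.

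Elane was the 1 gene of the 10 with no overlap between the marrow groups, against 47.8% of tested genes with none in either direction and 27.5% with AML lower. Its mean was 29.1 ± 30.2 CPM in marrow control and 2.92 ± 3.29 CPM in marrow AML, a log2 fold change of -3.31 ± 1.66 that did not pass (adjusted p = 0.136). It remained negative, at -2.02, without marrow control 1. Camp (-4.10 ± 1.90, adjusted p = 0.101) and Ngp (-2.19 ± 1.70, adjusted p = 0.318) did not pass either. The other 6 had log2 fold changes between -0.82 (S100a9) and 0.01 (S100a8), with standard errors of 0.60 (Lcn2) to 1.72 (Mpo), so that changes of several fold in either direction lie within the error for most of them. The median over the 10 genes was -0.61, beside -0.11 over all tested genes. Without marrow control 1, the sign turned to positive for Mpo (1.83), Prtn3 (1.35), Ctsg (0.71), Ngp (2.78), Camp (1.17), Lcn2 (0.06) and S100a9 (1.37), and none of these passed.

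In lung, AML against control, none of the 10 genes passed with edgeR (0 called, against 2.33% of all tested genes called and 1.17% called higher), while 7 had an unadjusted p under 0.05. The same 7, the 4 azurophil genes with Ltf, Ngp and Camp, were higher in every lung AML library than in every lung control library, against 18.2% of tested genes with that pattern. Ngp was at 37.4 ± 31.1 CPM in lung AML and 0.153 ± 0.169 CPM in lung control, a log2 fold change of 7.93 ± 2.30 (adjusted p = 0.101). Ltf was at 29.8 ± 25.0 and 1.10 ± 0.744 CPM (4.74 ± 1.79, adjusted p = 0.205), Mpo at 12.7 ± 11.8 and 0.0911 ± 0.0549 CPM (7.03 ± 2.55, adjusted p = 0.186) and Prtn3 at 2.13 ± 1.03 and 0.243 ± 0.129 CPM (3.12 ± 0.95, adjusted p = 0.118). The remaining 3 had 0 to 2 counts in the lung controls together. Elane, with 290 counts in lung AML and 0 in lung control, was at least 87.95-fold higher, the 0 being set at 3 counts for the group as a whole (adjusted p = 0.144). Ctsg had 237 counts against 1, a ratio of 216 (95% counting interval 38.3 to 8552, adjusted p = 0.142), and Camp 351 against 2, a ratio of 160 (43.9 to 1324, adjusted p = 0.167).

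Lcn2 (0.38 ± 0.56), S100a8 (0.85 ± 0.94) and S100a9 (0.71 ± 1.09) had small log2 fold changes in lung, with adjusted p of 0.857, 0.778 and 0.865. The median over the 10 genes was 5.80, or 5.68 from ratios of the group counts with Elane at its bound, beside 0 over all tested genes. The calls depended on the tool. DESeq2 called 5 (Elane, Mpo, Prtn3, Ctsg and Ngp, adjusted p from 0.000556 to 0.00910) and limma-voom called 0. An edgeR fit of the 6 lung libraries alone called 4 (Prtn3, Ltf, Ngp and Camp, adjusted p from 0.0187 to 0.0320). Elane, Mpo and Ctsg did not pass the filter of that fit and were not tested in it. Prtn3, Ngp and Camp had under 10 counts in every lung control and passed it through the lung AML libraries, where they were high. Without lung AML 1, the deepest library, with 39.2 M counts, the 7 fold changes remained positive, from 2.88 for Prtn3 to 9.19 for Elane.

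**Figure D2:**
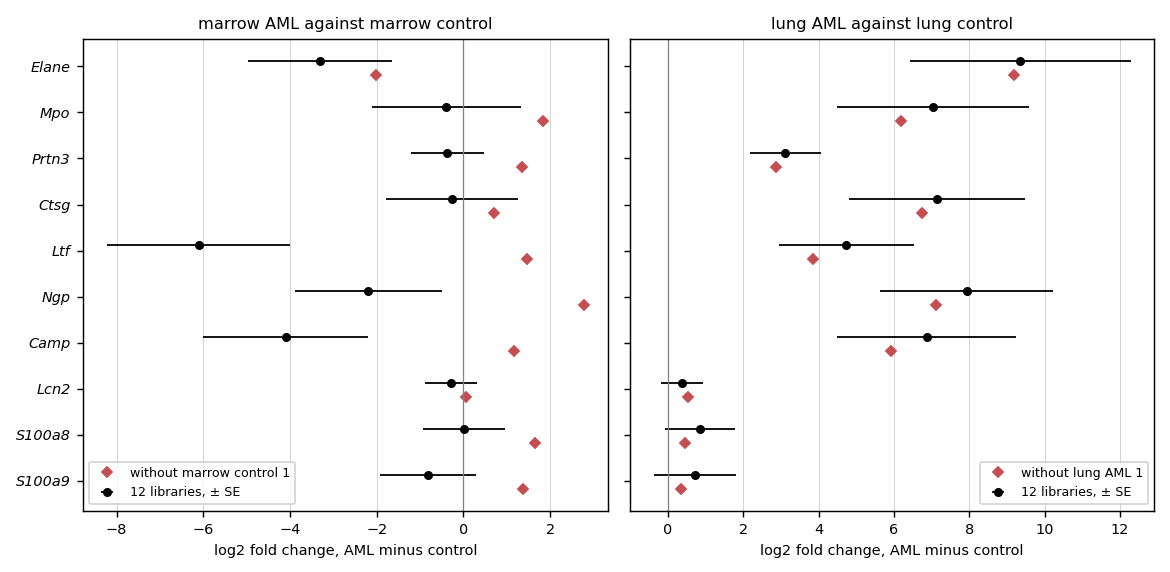
Fitted log2 fold change of each gene between AML and control in marrow (left) and lung (right), as black points with bars of 1 standard error from all 12 libraries, and as red diamonds without marrow control 1 (left) or lung AML 1 (right). Without marrow control 1, Elane lies at -2.02 and the other 9 genes lie to the right of 0 in marrow, and in lung the 7 upper genes lie far to the right of 0 in both fits, although the fitted values of Elane, Ctsg and Camp there depend on the prior count.

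The difference of the 2 AML effects, marrow minus lung, was tested as an interaction over the same 12 libraries. It was called for 4 of the 10 genes, all as lower in marrow, against 30.7% of tested genes called and 16.1% called lower. Ltf had a difference of -10.85 ± 2.77 on the log2 scale (adjusted p = 0.0125), Ngp of -10.13 ± 2.83 (adjusted p = 0.0194), Camp of -10.97 ± 3.04 (adjusted p = 0.0188) and Elane of -12.66 ± 3.38 (adjusted p = 0.0199). Mpo (-7.43 ± 3.08, adjusted p = 0.0914), Prtn3 (-3.49 ± 1.25, adjusted p = 0.0553) and Ctsg (-7.42 ± 2.79, adjusted p = 0.0653) had the same sign and did not pass. Lcn2, S100a8 and S100a9 had differences of -0.66 ± 0.82, -0.84 ± 1.33 and -1.53 ± 1.55. Without marrow control 1 the Elane difference was still called, and those of Ltf (-3.29, adjusted p = 0.470), Ngp (-5.15, adjusted p = 0.115) and Camp (-5.69, adjusted p = 0.10) were not. The calls for Ngp and Camp were also lost without lung control 2 or 3 (adjusted p from 0.0504 to 0.0558). With a replicate block the calls for Ltf (adjusted p = 0.0597) and Ngp (0.0742) were lost, and Mpo (0.0321) and Ctsg (0.0115) were called. None of the 4 genes was called with limma-voom, and Camp alone was called with no filter. The adjusted p ran from 0.000515 to 0.0859 over the alternatives for Elane, from 0.000569 to 0.470 for Ltf, from 0.000434 to 0.140 for Ngp and from 0.00857 to 0.10 for Camp.

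Between the tissues of control mice, 7 of the 10 genes passed, 6 as higher in marrow and 1 as lower, against 64.2% of all tested genes called, 29.4% as higher and 34.7% as lower. The 4 azurophil genes were higher in marrow than in lung: Mpo by 8.92 ± 2.66 on the log2 scale (adjusted p = 0.0123) and Prtn3 by 5.0 ± 1.02 (adjusted p = 0.00127), Elane by at least 781-fold (adjusted p = 0.00476), and Ctsg with 377 counts against 1, a ratio of 494 (counting interval 88.1 to 19548, adjusted p = 0.00923). Of the specific granule genes, Ngp (6.27 ± 2.18, adjusted p = 0.0255) and Camp (514 counts against 2, a ratio of 337 with a counting interval of 92.7 to 2786, adjusted p = 0.0140) were higher in marrow. Lcn2 was lower in marrow, by a log2 fold change of -5.70 ± 0.70 (adjusted p = 3.42e-05). Without marrow control 1 the Ngp and Camp calls were lost (1.28, adjusted p = 0.556, and 2.68, adjusted p = 0.240), the sign for Ltf turned, from 2.46 ± 1.64 (adjusted p = 0.208) to -5.13 (adjusted p = 0.0185), and S100a8 (-2.98, adjusted p = 0.0261) and S100a9 (-3.89, adjusted p = 0.0172) were called lower in marrow. The 4 azurophil calls and the Lcn2 call did not depend on that library. With limma-voom the calls for Mpo (adjusted p = 0.0664), Ngp (0.221) and Camp (0.0808) were lost, and with no filter those for Mpo (0.0593) and Ngp (0.0961). In edgeR the Ngp call was also lost without lung control 1, 2 or 3 (adjusted p = 0.0521, 0.0799 and 0.0823) and with a replicate block (0.0662). The Camp call was lost without lung control 2 (0.0502).

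Between the tissues of mice with AML, 3 of the 10 genes passed, all lower in marrow, against 47.6% of tested genes called and 25.2% called lower. The log2 difference, marrow minus lung, was -8.40 ± 2.25 for Ltf (adjusted p = 0.00970), -6.36 ± 0.72 for Lcn2 (adjusted p = 5.88e-05) and -3.22 ± 1.19 for S100a9 (adjusted p = 0.0428). The S100a9 call was lost without any 1 of marrow AML 1 or 3, lung control 1, 2 or 3 or lung AML 1 or 2 (adjusted p from 0.0520 to 0.102), and under 5 other alternatives (0.0513 to 0.196). The Ltf call was lost with limma-voom alone. The azurophil genes, all called between the control tissues, did not pass between the AML tissues: Elane had a log2 difference of -0.21 ± 1.54, Mpo of 1.48 ± 1.75, Prtn3 of 1.51 ± 0.86 and Ctsg of 0.99 ± 1.54. Prtn3 was higher in every marrow AML library than in every lung AML library, and Ltf, Ngp, Camp, Lcn2 and S100a9 were lower in every one, while 26.2% and 32.7% of tested genes had these patterns. The 2 tissue comparisons use the same libraries as the 2 AML comparisons, so the 4 sets of values are not independent.

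The make-up of the granule gene counts separated the tissues and 1 marrow library. Azurophil genes gave 57.1, 49.0 and 80.8% of the counts of the 10 genes in marrow control 1 to 3 and 71.5 and 72.7% in marrow AML 1 and 3. In marrow AML 2 they gave 9.77% (exact 95% interval 8.12 to 11.6%), and calprotectin gave 74.8% (72.2 to 77.3%). In lung control the azurophil share was at most 0.167%, with Lcn2 at 55.5 to 80.7%. In lung AML it was 5.38, 0.254 and 5.17%, and Ltf, Ngp and Camp together gave 21.1, 8.59 and 6.504%, against 0.757% or less in lung control. These intervals cover counting error only.

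**Figure D3:**
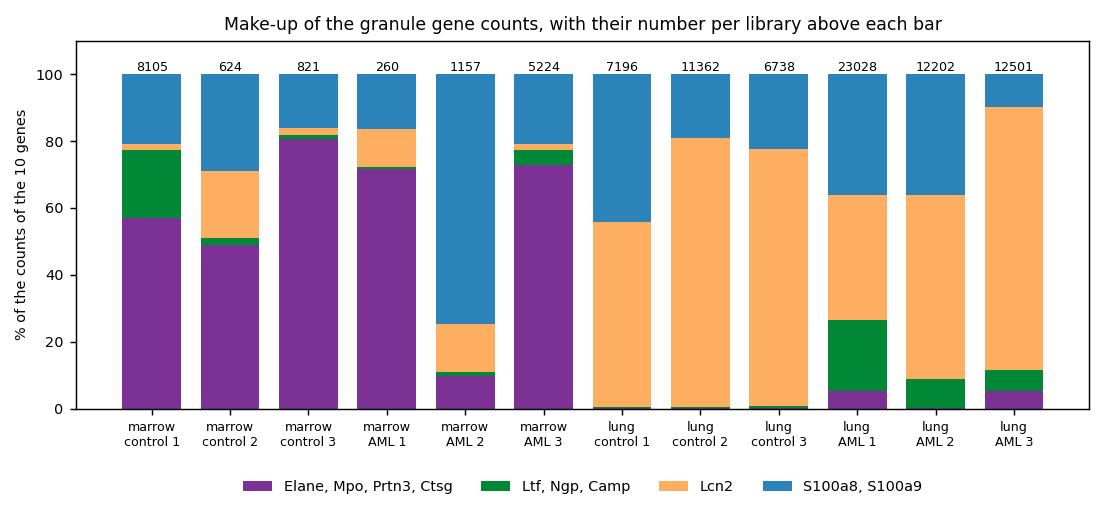
Share of the counts of the 10 genes, in percent, that came from the azurophil genes, from Ltf, Ngp and Camp, from Lcn2 and from calprotectin in each library, with the number of counts above each bar. Azurophil genes hold 49.0% or more in 5 of the 6 marrow libraries and 9.77% in marrow AML 2, and the share of Ltf, Ngp and Camp is largest in lung AML 1 and marrow control 1.

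The ratio of the calprotectin genes was narrow in lung and wide in marrow. S100a8 and S100a9 encode the subunits of 1 complex, and S100a9 had 1.27 to 1.56 times the counts of S100a8 in all 6 lung libraries. In marrow the ratio was 1.21 and 1.59 in marrow control 1 and 2 and 1.22 in marrow AML 2, and 0.291 (counting interval 0.187 to 0.441), 0.265 (0.112 to 0.564) and 0.339 (0.295 to 0.389) in marrow control 3, marrow AML 1 and marrow AML 3. The 3 marrow libraries with the low ratio are also those in which azurophil genes gave 71.5% or more of the granule gene counts. Mpo had 0.682 to 1.89 times the counts of Elane in marrow control and 15.8 times (13.6 to 18.4) in marrow AML 3, which held 2943 Mpo counts and 186 Elane counts. In lung AML 1 and 3 the ratio was 6.22 and 2.25, and in lung AML 2, with 4 counts against 1, it had a counting interval of 0.396 to 197. Prtn3 had 0.170 to 0.296 times the counts of Elane in marrow control and 1.63 and 1.59 times in marrow AML 1 and 3, with the overlap with Plppr3 as given above. In lung AML 1 and 3 it had 0.732 and 0.424 times the counts of Elane, and in lung AML 2 it had 22 counts against 1 (counting interval of the ratio 3.56 to 908).

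**Figure D4:**
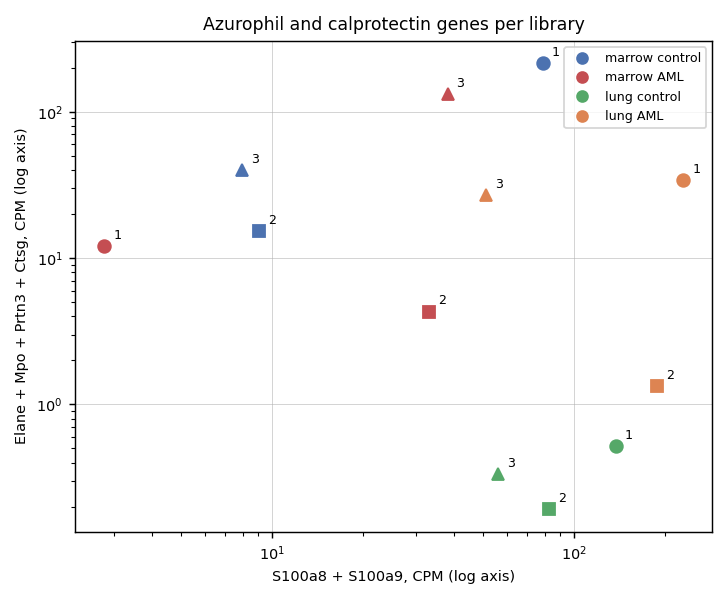
Sum of Elane, Mpo, Prtn3 and Ctsg against the sum of S100a8 and S100a9 in each library, both in TMM-scaled CPM on log axes, with the library number beside each point. The lung controls lie at the bottom, lung AML 1 and 3 lie far above them and lung AML 2 near them, and the marrow libraries spread over more than 1 order of magnitude on both axes.

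Ranked among all tested genes of a group, the granule genes varied widely between libraries of marrow control and of lung AML. In marrow AML and lung control the rank was lower for some of them. The ranking was not matched for level, and some of the 10 genes had few counts in single libraries. Ltf had 391, 1 and 0 counts in marrow control 1 to 3, and Camp 507, 1 and 6. The standard deviation of the log2 level itself was not smaller throughout in marrow AML. For Mpo it was 4.67 there, against 2.30 in marrow control and 3.58 in lung AML. For Ltf it was 0.815, against 4.31 and 1.41. The standard deviation of the log2 level within marrow control lay at or above the 95.8th percentile of tested genes for all 10 (Lcn2 lowest, Ltf at the 99.99th). In lung AML it lay at the 93.5th percentile or above for 9, and at the 73.7th for Lcn2. In marrow AML it lay at the 65.8th percentile for Prtn3, the 66.9th for Ltf and the 68.3rd for Lcn2, and at the 86.8th or above for the other 7. In lung control the highest was Ltf, at the 94.1st, and the lowest Elane, with 0 counts in each library. In marrow control, library 1 was the highest for 10 of 10 genes, while it was the highest for 30.7% of all symbols with at least 15 counts in all and for 20 of 34 related granule and neutrophil genes. In marrow AML, library 3 was the highest for 8 of the 10 (34.8% of all symbols) and library 2 for S100a9 and Lcn2. In lung AML, library 1 was the highest for 8 (31.6% of all symbols) and library 3 for Elane and Lcn2.

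Levels of different genes were compared per kilobase of exon. In marrow control S100a9 (32.3 CPM per kb) and Elane (29.6 CPM per kb) had the highest means, at the 90.3rd and 89.6th percentile of 20914 genes, and Lcn2 (1.74 CPM per kb) and Ltf (1.76 CPM per kb) the lowest. In marrow AML S100a8 (21.9 CPM per kb) and S100a9 (18.1 CPM per kb) were followed by Mpo (10.3 CPM per kb). In lung control S100a9 (104 CPM per kb), Lcn2 (91.1 CPM per kb) and S100a8 (54.4 CPM per kb) stood at the 96.2nd percentile or above, while the other 7 were at 0.320 CPM per kb or less. In lung AML the same 3 led, at 170.5, 118 and 98.2 CPM per kb, and Ngp followed at 30.6 CPM per kb. The order of these means is not firm within a group, since the standard deviation was as large as the mean or larger for 8 of the 10 genes in marrow control.

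Across the 12 libraries the log2 levels of some genes of a granule class varied together, and Lcn2 stood outside its class. Pearson's r was 0.97 for Mpo and Ctsg, 0.95 for Elane and Mpo, 0.93 for Elane and Ctsg, 0.93 for Ngp and Camp and 0.93 for S100a8 and S100a9. Prtn3 followed the azurophil genes less closely (r of 0.77 to 0.81), and within the 6 marrow libraries it had an r of 0.36 to 0.61 with them and of 0.83 to 0.90 with Ltf, Ngp and Camp. Ltf had an r of 0.74 with Ngp and 0.75 with Camp over the 12 libraries. Lcn2 had an r of 0.67 with Ltf, 0.22 with Ngp and 0.08 with Camp. It went with S100a9 over all 12 libraries (r = 0.81) but not within the 6 lung libraries (r = -0.34), and it ran against Elane (r = -0.53). These values are descriptions, since the libraries share groups, tissues and depth. By the same measure the tested genes most like the azurophil mean, out of 11230, were Fmr1 (r = 0.871), Eif4b, Ccdc82, Senp7 and Zkscan14. Those most like the specific granule mean were Mmut (r = 0.947), Fbxo38, Zbtb44, Rbl2 and Pcmtd2, and those most like the calprotectin mean were Pcolce2 (r = 0.934), Rb1cc1, Aph1c, Rab7b and Actr8.

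Other genes of the granule system were set beside the 10. The background for each count in marrow AML below is 20.4% of all tested genes called higher and 23.5% called lower. For lung AML it is 212 of 18147 tested genes called higher and 211 called lower. Of 7 tested genes for processing, packing and inhibition of the serine proteases, 5 rose in marrow AML and none passed in lung. Ctsc, the peptidase that activates elastase, cathepsin G and proteinase 3, went up from 17.4 ± 5.76 to 156 ± 24.0 CPM, or by 3.16 ± 0.27 on the log2 scale (adjusted p = 1.92e-05), while in lung it was at 1536 ± 348 and 1810 ± 77.4 CPM (0.24 ± 0.24). Slpi, an inhibitor of elastase and cathepsin G, rose by 3.45 ± 0.61 (adjusted p = 0.00100), and Cst7, an inhibitor of cathepsins, by 3.78 ± 0.82 (adjusted p = 0.00331). Of 9 tested further azurophil and lysosomal genes, 5 rose in marrow AML, among them the lysosomal enzyme gene Man2b1 (1.69 ± 0.18), and none passed in lung.

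Of 14 tested further specific granule genes, 4 rose in marrow AML, a share near the 20.4% of all tested genes called higher, and none passed in lung. Cyba and Cybb, the membrane subunits of the NADPH oxidase, rose by 2.97 ± 0.20 (adjusted p = 1.17e-05) and 3.27 ± 0.49 (adjusted p = 0.000400). Hp, the haemoglobin-binding haptoglobin, rose from 128 ± 32.1 to 1307 ± 426 CPM (3.35 ± 0.28, adjusted p = 1.92e-05), and Itgb2, the beta chain of the leukocyte integrins, by 3.12 ± 0.50. The collagenase gene Mmp8 had a log2 fold change of 2.09 ± 1.04 in lung (adjusted p = 0.359). Of 13 tested genes of gelatinase granules and mature neutrophils, 5 rose in marrow AML, against the same 20.4%, among them Mmp9 (2.67 ± 0.66, adjusted p = 0.00735), the gelatinase gene, and Clec4d (3.86 ± 0.91, adjusted p = 0.00556), a lectin receptor gene. Fpr1, a receptor for formylated peptides, had 0 counts in marrow control and 141 in marrow AML, none of them in marrow AML 1. In lung none passed, and the log2 fold change of Retnlg was 2.45 ± 1.08 (adjusted p = 0.283).

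In marrow AML 2, in which Elane and Ctsg had 0 counts, some genes of mature neutrophils were higher than in the other marrow AML libraries and others were not. Related granule and neutrophil genes with a count in marrow AML numbered 35. Of these, 19 were highest in marrow AML 2 (29.6% of all symbols), 13 in marrow AML 3 (34.8%) and 3 in marrow AML 1 (35.6%). The genes named for this, Cxcr2, Csf3r, Chil3, Retnlg, G0s2, Ms4a3 and Prss57, were picked after their values were seen. Cxcr2, the receptor by which mature neutrophils leave marrow, was at 7.26 CPM in marrow AML 2 and at 0.194 and 0.140 CPM in marrow AML 1 and 3. Csf3r, the G-CSF receptor gene, was at 5.65 CPM in marrow AML 2 and at 0 and 0.733 CPM in the other two. Chil3, a chitinase-like gene that neutrophils share with lung macrophages, was at 30.7 CPM in marrow AML 2 and at 0.130 and 0.768 CPM in the other two. Retnlg, a resistin-like gene of neutrophils, was at 0, 3.17 and 3.73 CPM in marrow AML 1 to 3, and G0s2 at 13.8, 16.6 and 20.4 CPM, both highest in marrow AML 3. Ms4a3, a gene of granulocyte and monocyte precursors, ran the other way, at 0 CPM in marrow AML 2 and 6.35 CPM in marrow AML 3, and its counts in lung were 0 in all 3 controls and 52, 0 and 18 in lung AML 1 to 3. Prss57, a further azurophil serine protease gene, was at 3.73 CPM in marrow AML 3, 2.05 CPM in marrow control 1 and 0 CPM in marrow AML 2.

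Of 9 tested granulocyte transcription factor genes, 6 rose in marrow AML and 1 fell, and in lung 1 rose. Cebpd rose in both tissues, from 78.9 ± 18.3 to 521 ± 154 CPM in marrow (2.72 ± 0.31, adjusted p = 8.52e-05) and from 292 ± 96.5 to 804 ± 168 CPM in lung (1.46 ± 0.30, adjusted p = 0.0311). Cebpb rose in marrow from 71.99 ± 15.6 to 447 ± 142 CPM (2.64 ± 0.36, adjusted p = 0.000235), and its change in lung, 1.11 ± 0.34, did not pass (adjusted p = 0.119). Spi1, the gene of PU.1, rose in marrow from 0.668 ± 0.422 to 7.72 ± 5.44 CPM (3.52 ± 0.75, adjusted p = 0.00321). Cebpe, the factor of the specific granule stage, had too few counts to be tested, with 17, 1 and 2 counts in marrow control, 0, 0 and 15 in marrow AML, 3, 2 and 3 in lung control and 16, 0 and 1 in lung AML. In the marrow groups and in lung AML its highest count fell in marrow control 1, marrow AML 3 and lung AML 1, which were also the highest libraries of their groups for Ngp and Camp. Cebpe was named after its values were seen.

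Of 8 tested receptor genes for granule proteins, 3 rose and 1 fell in marrow AML, against 20.4% of all tested genes called higher and 23.5% called lower, and none passed in lung. Tlr4, a receptor of calprotectin, rose from 3.99 ± 2.39 to 28.6 ± 5.56 CPM (2.83 ± 0.38, adjusted p = 0.000227), Emb, an immunoglobulin-family receptor, rose by 2.55 ± 0.22 (adjusted p = 1.92e-05), and Bsg, the gene of basigin, fell by 0.91 ± 0.16 (log2; adjusted p = 0.000945). Of 12 tested other S100 genes, 7 rose in marrow AML, where S100a8 and S100a9 did not pass. S100a6 rose from 23.2 ± 10.99 to 233 ± 79.4 CPM (3.32 ± 0.43, adjusted p = 0.000174) and S100a10 by 2.67 ± 0.24 (adjusted p = 2.41e-05). In lung S100a16 fell, from 231 ± 74.9 to 77.5 ± 14.9 CPM (-1.57 ± 0.32, adjusted p = 0.0301). Of 13 tested acute phase and NF-kappaB-induced genes, a class in which Lcn2 is often placed, 11 rose in marrow AML, Il6 (6.13 ± 0.75, adjusted p = 0.000122) and Cxcl2 (4.4 ± 0.57, adjusted p = 0.000175) among them, and in lung 1 did, Cp, the ceruloplasmin gene (1.75 ± 0.31, adjusted p = 0.0173). Lcn2 itself passed in neither tissue.

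Markers of other cells moved with AML in marrow, where 20.4% of all tested genes were called higher and 23.5% lower. Of the 10 pan-leukocyte markers 7 rose and 1 fell, and their sum went from 0.0139 to 0.0173% of the counts in marrow control to 0.0657 to 0.0840% in marrow AML, with none of the 10 at 0 counts in any library. Most of the rise in this sum came from Arhgdib, at 14.4 ± 5.54 CPM in marrow control and 433 ± 44.1 CPM in marrow AML, while Rac2 was at 121 ± 19.998 and 74.0 ± 11.7 CPM and was the marker that fell. Ptprc, the CD45 gene, was at 7.86, 5.23 and 2.52 CPM in marrow control and 0.130, 5.003 and 0.174 CPM in marrow AML, so that marrow AML 3, the marrow AML library with the most Mpo, held 5 Ptprc counts. Of the 13 erythroid genes 12 fell, with sums of 2.37 to 2.62% in marrow control and 0.123 to 0.608% in marrow AML. Of 8 tested mast cell and basophil genes 6 rose, and of the 8 pericyte and smooth muscle genes all 8 rose. Among the others, 1 rose and 8 fell of 17 endothelial genes, 3 rose and 2 fell of 10 progenitor and blast genes, 1 of 14 monocyte and macrophage genes rose, 1 rose and 3 fell of 7 B cell genes, 1 of 9 T and NK cell genes rose, 3 rose and 3 fell of 10 marrow stroma genes, and none passed of 12 lung epithelial and 3 eosinophil genes.

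In lung, where the 7 granule genes were higher in all AML libraries, none of the 10 pan-leukocyte markers passed. Their sum was 0.0537 to 0.0682% in lung control and 0.0398 to 0.0533% in lung AML, and Ptprc was at 46.6, 27.0 and 42.6 CPM in lung control and 24.1, 22.2 and 27.1 CPM in lung AML. Over all 18147 tested genes, 212 were called higher in lung AML and 211 lower. Of the 17 endothelial genes 9 fell, of the 10 progenitor and blast genes 2 fell, of the 13 erythroid genes 3 rose, and of the 10 marrow stroma genes 1 rose and 1 fell. None passed among the monocyte and macrophage, mast cell and basophil, eosinophil, B cell, T and NK cell, lung epithelial, and pericyte and smooth muscle lists. The part of these cells in the granule gene values of either tissue was not tested.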

How the data were processed

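Per the labels, total RNA of VE-cadherin-positive cells was made into libraries with kits for low input. Per the submitters' processing notes, bcl2fastq, STAR and the mm10 build were used, with no version stated there. The deposited files hold raw counts per gene symbol, made without regard to strand, as their names tell. The 12 libraries were fitted in R 4.3.3 with edgeR 4.0.16, as 1 quasi-likelihood model of 4 groups with 8 residual degrees of freedom. The filter by group (minimum count 10, minimum total 15) came first, TMM factors lay between 0.865 and 1.25, and p-values were adjusted by Benjamini-Hochberg over 18147 genes. Calls were made under an adjusted p of 0.05. Standard errors are the log2 fold change divided by the root of F. CPM are TMM-scaled counts. The floor for a group with 0 counts was 3 counts, and intervals are exact at 95%, covering counting error only.

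Alternatives were DESeq2 1.42.0, limma-voom (limma 3.58.1), other size factors, other filters, a replicate block, fits of the compared libraries alone and leaving out each library. Scripts were tested on simulated data. Named genes were the 10 members, up to 4 genes of smallest p per related list and AML comparison, up to 3 of the most abundant of each marker list and the 5 most correlated genes of each class with a mean of 10 CPM or more in a group. Cdh5 and Ptprc, as defining genes, and those said to be picked after their values were seen fall outside this rule. A gene that the rule names is not reported here. The members and lists were chosen with earlier results of these data known. Gene positions and exon lengths are from GENCODE on GRCm38.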

Additional observations from a re-analysis of the deposited data

Results flagged for a closer look

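The difference of the AML effects between marrow and lung passed the test (edgeR interaction term, adjusted over 18147 genes) for 4 of the 10 genes, as described above. The differences, marrow minus lung on the log2 scale, were -12.66 for Elane, -10.85 for Ltf, -10.13 for Ngp and -10.97 for Camp, and the values for Elane and Camp depend on the prior count because the lung controls held 0 and 2 counts. Elane was lower in every marrow AML library than in every marrow control and higher in every lung AML library than in every lung control, while for the other 3 genes the marrow groups overlapped. The cause of these differences was not tested.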

How the results depend on the processing

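Of the 10 genes, the number called in marrow AML against control was 1. It became 0 with limma-voom and with no filter, and ran from 0 to 1 when each library was left out. In the fit of the compared libraries alone it was also 0, but 8 of the 10 genes were tested there. Ltf, the gene called with all 12 libraries, and Camp did not pass the filter of that fit. In lung AML against control it was 0 and became 5 with DESeq2, with 0 to 1 on leaving out a library. It became 4 in the fit of the compared libraries, where 7 of the 10 genes passed the filter. For the difference of effects it was 4, and became 0 with limma-voom and 1 with no filter, with 1 to 7 on leaving out a library. Between control tissues it was 7 and became 4 with limma-voom, and between AML tissues it was 3, and became 5 with DESeq2 and 1 with limma-voom, with 2 to 5 on leaving out a library. Over all genes, the number called in lung was 423, and became 1643 with DESeq2, 2282 with limma-voom and 1239 in the fit of the compared libraries, with 72 on leaving out lung AML 1 to 761 on leaving out marrow AML 3.

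The sign of some log2 fold changes turned. In marrow AML against control, Lcn2 was at 0.06 with library totals alone and S100a8 at -0.18 with limma-voom, and with each library left out in turn the values ran from -4.79 to 1.83 for Mpo, -0.99 to 1.35 for Prtn3, -2.33 to 0.71 for Ctsg, -7.68 to 1.46 for Ltf, -5.44 to 2.78 for Ngp, -8.13 to 1.17 for Camp, -0.89 to 0.06 for Lcn2, -0.81 to 1.66 for S100a8 and -1.68 to 1.37 for S100a9. In the difference of effects they ran from -1.66 to 0.81 for S100a8 and -2.39 to 0.66 for S100a9. Between control tissues Ltf was at -0.72 with limma-voom and ran from -5.13 to 3.03. Between AML tissues Elane was at 0.14 with library totals alone and ran from -1.67 to 0.57, Mpo was at -1.37 with limma-voom and ran from -2.92 to 2.29, and Ctsg was at -1.54 with limma-voom and ran from -1.09 to 1.56. The cause was not tested.

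The deviations of same-numbered libraries from their group means correlated between -0.16 and 0.18, not over 0.1 for every pair of any comparison, and the labels do not say whether a number marks a shared mouse, batch or day, so the numbers were not taken as pairs. The fit with the replicate block left the number called in marrow at 1, which was then Elane (-4.67, adjusted p = 0.0259) and not Ltf (-4.61, adjusted p = 0.135). In that fit Prtn3 was at 0.20 and S100a9 at 0.09 in marrow. For the difference of effects it called 4, with Mpo (-9.07, adjusted p = 0.0321) and Ctsg (-8.42, adjusted p = 0.0115) in place of Ltf (-8.26, adjusted p = 0.0597) and Ngp (-8.77, adjusted p = 0.0742).

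Some of the genes had few counts. In lung control, with 24.1 to 28.6 M counts per library, 6 of the 10 genes had under 10 counts in at least 2 of 3 libraries. DESeq2 gave no adjusted p for Camp in any of the 5 comparisons, and the reason was not tested.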
